A study of Mus musculus with 23 samples.

Results

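The genes described here are 37 complement and coagulation factor genes, the plasma proteases, cofactors, chains and inhibitors that the liver supplies to the blood. They were taken by gene symbol from 22852 genes listed in both deposited tables of a bulk RNA sequencing study of mouse liver, and every one of the 37 was found and passed the filter on low counts in all comparisons. The series title names the ablation of hepatic CPT1a, an outer mitochondrial membrane enzyme that controls how much long-chain fatty acid enters beta-oxidation. There were 23 livers in 4 groups: 5 control males (replicates 1, 2, 3, 4 and 6), 6 LKO males, 6 control females and 6 LKO females. All mice, controls included, carry the label B100, received a diet labelled WD over 16 weeks, and were in the fed state at necropsy. The genotype labels are B100-Control and B100-LKO. What drives the deletion in LKO mice, what B100 stands for, the age of the mice and what the control animals carry are not given in the sources used here. Nothing in the labels says which mice share a litter or a sequencing batch, so the p-values measure the spread between these livers.

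Complement is a chain of plasma proteins that marks and lyses targets. C1q starts the classical pathway by binding antibody, mannose-binding lectins with their MASP proteases start the lectin pathway, and factors B and D amplify the response through the alternative pathway. All of these converge on C3, and the terminal components C6, C8 and C9 then assemble a pore in the target membrane. Coagulation runs in parallel: serine proteases, several of them made functional by vitamin K dependent carboxylation, end in thrombin, which cleaves fibrinogen into fibrin. Plasminogen dissolves fibrin. Serpins restrain both clotting, as antithrombin does, and the dissolution of fibrin, as alpha-2-antiplasmin does. Hepatocytes make most of these proteins, while C1q in liver comes largely from Kupffer cells, the resident macrophages.

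The tables held 14224665 to 19626662 counts per liver. Levels are given as CPM, counts scaled to a common library size with TMM factors, and comparisons between genes use the FPKM values deposited by the authors, which divide by gene length. Cpt1a itself separated the genotypes: it was 301 to 426 CPM in control males and 41.7 to 95.8 in LKO males, and 287 to 436 CPM in control females and 62.3 to 87.6 in LKO females (log2 fold changes -2.50 and -2.35, edgeR quasi-likelihood test, Benjamini-Hochberg adjusted p 9.97e-05 and 3.69e-08). All 8 hepatocyte markers examined were present in every liver, with a summed level of 56579 to 105295 CPM. Some libraries stood apart in these genes. Control male replicate 4 had the highest level of its group for 26 of the 37, LKO male replicate 1 for 23 and LKO female replicate 6 for 19, whereas LKO male replicate 3 had the lowest of its group for 22 and control male replicate 3 for 19. In LKO female replicate 6 the summed level of 14 acute phase genes was 39436 CPM, the highest of the 23 livers, and its summed hepatocyte markers were the lowest of its group at 61460.0 CPM. For a number of results the value without such a library is given beside the main one.

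The share of a library's counts that fell in the 37 genes was 2.06 to 4.61 percent. Per gene length, the fibrinogen chains and C3 led. Averaged over the group means, Fgg stood at 1236 FPKM, Fga at 1024, C3 at 906 and Fgb at 849.6, ranks 40, 49, 54 and 62 among all genes. Neighbours in this order were close: in control males Fgg was 1271 ± 533 FPKM, Fga 999.9 ± 329 and C3 588 ± 71.4 (SD, n = 5). The ranges of Fgg and Fga overlapped, and C3 lay lower there, also below the Fgb mean of 831 FPKM. In control females the mean of C3 was 1180 FPKM, so its place in the averaged order combines unlike sexes. These SDs are spreads between livers in which both chains were measured. They therefore do not measure the difference between Fgg and Fga within a liver. Kininogen (Kng1) followed at 608 FPKM, and prothrombin (F2) at 451. At the low end were Pros1, Masp1, Cfd and C2, between 8.6 and 10.1 FPKM, and Cfb, the alternative pathway protease factor B, at 0.913 FPKM.

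The first comparison asked whether loss of hepatic Cpt1a altered these genes. No member passed an adjusted p of 0.05 in either sex. In males 0 of 37 were called by the edgeR quasi-likelihood test, against 0.00724 percent of all genes tested in males, which is Cpt1a alone. In females 0 of 37 were called, against 1.42 percent of all genes tested. In the average of both sexes, fitted over all 23 livers, 0 of 37 were called, against 0.545 percent. At an unadjusted p under 0.05 there were 3 members in males, 10 in females and 11 in the average, where the same threshold took 12.5, 15.6 and 14.8 percent of all genes; the DESeq2 test called 0 members in males, F2 and Serpinc1 in females, and Mbl2 and Serpinc1 in the average. The authors' deposited table has 0 members under an adjusted p of 0.05 in males and 2 in females, F2 at 0.0450 and Serpinc1 at 0.0247. It rests on the same counts. Its values for these members are those of the DESeq2 test, so it is not a separate result.

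The estimates were small. The median log2 fold change over the 37 was -0.059 in males and -0.086 in females, where the medians over all genes tested were 0.010 and 0.0051. The median standard error per member was 0.14 in males and 0.12 in females. Of the 37, 18 had a negative estimate in both sexes and 11 a positive one in both. The other 8 differed in sign between the sexes, 3 of them negative in males only. Without control male replicate 4 the male median was 0.066, with 20 positive and 17 negative estimates in place of 16 and 21. Without LKO female replicate 6 the female median was -0.12, with 9 positive and 28 negative in place of 14 and 23. In that fit 14 members in place of 10 reached an unadjusted p under 0.05. Over all genes tested, 2303 of 13781 did so, in place of 2140 of 13684. The number of members called was 0 in both of these fits. Single livers moved the male estimates widely: 25 of 37 changed by over 1.5 times or turned sign without control male replicate 4, and 17 each without LKO male replicate 1 or LKO male replicate 3. In females the highest such number was 15, without LKO female replicate 6.

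**Figure D1:**
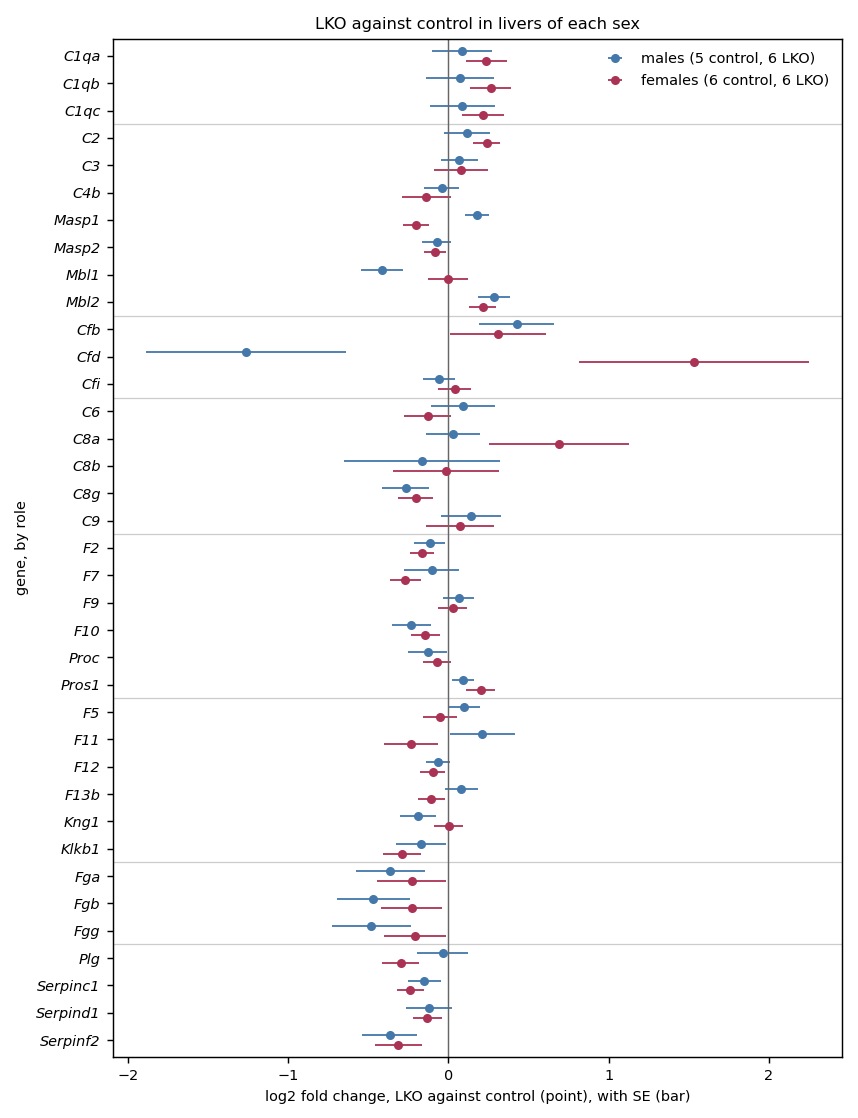
Log2 fold change of each of the 37 genes, LKO against control, in males (blue, 5 control and 6 LKO livers) and females (red, 6 and 6), with bars of 1 SE; grey lines separate role groups. The fibrinogen chains lie left of 0 in both sexes, from -0.48 to -0.21, Masp1 and Cfd lie on opposite sides of 0 in males and females, and no point passed an adjusted p of 0.05.

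C1qa, C1qb and C1qc encode the chains of C1q and lie side by side on chromosome 4 in the mm39 coordinates of the tables (C1qb, C1qc and C1qa at chr4:136607440-136613498, chr4:136617115-136620376 and chr4:136623228-136626114, all minus strand). C1qb was 175, 80.6, 127, 137 and 87.6 CPM in the control males. In the other groups its lowest, median and highest values were 98.3, 120.3 and 181 CPM in LKO males, 106, 136 and 179 in control females and 136, 179 and 202 in LKO females. The genotypes overlapped in both sexes. The log2 fold change of C1qb was 0.073 (SE 0.21) in males and 0.26 (SE 0.13) in females, with adjusted p of 0.93 and 0.346. For C1qa it was 0.084 (SE 0.19) and 0.24 (SE 0.13), with adjusted p of 0.903 and 0.395. Without LKO male replicate 3 the male values were -0.027 for C1qa and -0.044 for C1qb. The chains kept close together in every liver: the count of C1qb was 0.885 to 1.12 times that of C1qa and the count of C1qc 0.871 to 1.08 times, while C1qa itself spanned 2.54-fold across the 23 livers. The 10 Kupffer cell and macrophage markers summed to 379 to 802 CPM in control males, 623 to 964 in LKO males, 633 to 1166 in control females and 786 to 1234 in LKO females, and none was at 0 in any liver. In females 0 of these 10 were called, whereas 5 of 7 markers of lipid-associated macrophages were (Gpnmb, Mmp12, Trem2, Lpl and Spp1, log2 fold changes 3.22, 2.50, 1.32, 1.025 and 0.66). Of all genes tested in females, 1.42 percent were called. The part of macrophage number in the C1q values was not tested, and in bulk tissue fewer cells of a type cannot be told apart from less RNA per cell.

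The lectin pathway held the members with the lowest p in males (Mbl1) and in the average of both sexes (Mbl2). Mbl2 (ENSMUSG00000024863, chr19:30210342-30217087, plus strand) encodes mannose-binding lectin C, which recognises sugars on microbial surfaces. Its level was 338, 317, 286, 308 and 373 CPM in the control males, and the lowest, median and highest were 350.0, 389 and 468 in LKO males, 440.0, 520.0 and 540.0 in control females and 517, 569 and 684 in LKO females. The LKO values were mostly the higher ones in each sex, with overlap in both. Its log2 fold change was 0.28 (SE 0.10) in males (adjusted p 0.303), 0.21 (SE 0.085) in females (adjusted p 0.24) and 0.25 (SE 0.063) in the average of both sexes, where its adjusted p of 0.0628 was the lowest of the 37. DESeq2 gave 0.0151 for that average, and over the alternatives run its lowest and highest adjusted p were 0.0151 and 0.126.

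Mbl1 (ENSMUSG00000037780, chr14:40873415-40881558, plus strand) encodes the related mannose-binding lectin A. It stood at 185, 178, 185, 273 and 239.6 CPM in the control males, and at 128, 159 and 190.5 (lowest, median, highest) in LKO males, 129.8, 169.9 and 185 in control females and 139.7, 151 and 237 in LKO females. The 2 highest male values were those of control replicates 4 and 6. In males the log2 fold change was -0.42 (SE 0.13), with an adjusted p of 0.274, the lowest among the 37 in that sex, and in females it was -0.0015 (SE 0.13), with an adjusted p of 0.997. Without control male replicate 4 the male value was -0.31, and without LKO female replicate 6 the female value was -0.13.

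Masp1 (ENSMUSG00000022887, chr16:23268167-23339565, minus strand), a protease that the lectins activate, and F2 were the 2 members whose genotypes did not overlap within a sex. Masp1 was at 90.8, 88.4, 92.2, 97.3 and 75.3 CPM in control males and 98.1 to 101 CPM in the 6 LKO males, a group spread of 1.2 percent of the mean. Every LKO male was thus above every control male. In females the order was the other way with overlap, 91.4, 112 and 114 CPM (lowest, median, highest) in controls and 85.2, 92.35 and 102 in LKO livers. Masp1 had a log2 fold change of 0.18 (SE 0.074) in males (adjusted p 0.361) and -0.20 (SE 0.080) in females (adjusted p 0.24). The interaction, females minus males, was -0.38 (SE 0.11), with an adjusted p of 0.18. Non-overlap took 1.77 percent of all genes tested in males.

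The other genes of this group are C2, C3, C4b and Masp2. C2 supplies the protease of the C3 convertase that both the classical and the lectin pathway build. It was 31.2, 22.1, 27.8, 38.9 and 25.1 CPM in the control males, and 24.35, 33.7 and 35.8 (lowest, median, highest) in LKO males, 28.8, 34.1 and 38.6 in control females and 34.3, 40.3 and 45.8 in LKO females. Its log2 fold change was 0.24 (SE 0.085) in females (adjusted p 0.179) and 0.12 (SE 0.14) in males (adjusted p 0.805), and the male value was 0.24 without control male replicate 4. C2 and Cfb are neighbours on chromosome 17 with 86 bases between them, and strand use in the counting is not given in the sources used here, so reads at their border are uncertain. C3, the component on which the pathways converge, had estimates of 0.068 in males and 0.081 in females. C4b, the partner of C2 in the classical convertase, had -0.042 and -0.14. C4b has a near-identical copy, C4a, and the split of reads between them is uncertain. In LKO female replicate 6, C3 reached 10721 CPM and C4b 2383.5, whereas the next highest LKO females were at 6264 and 1358. Without that library the female estimates were -0.12 for C3 and -0.32 for C4b, with adjusted p of 0.6205 and 0.0976. Masp2 varied little, with group medians of 131 to 140.0 CPM.

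**Figure D2:**
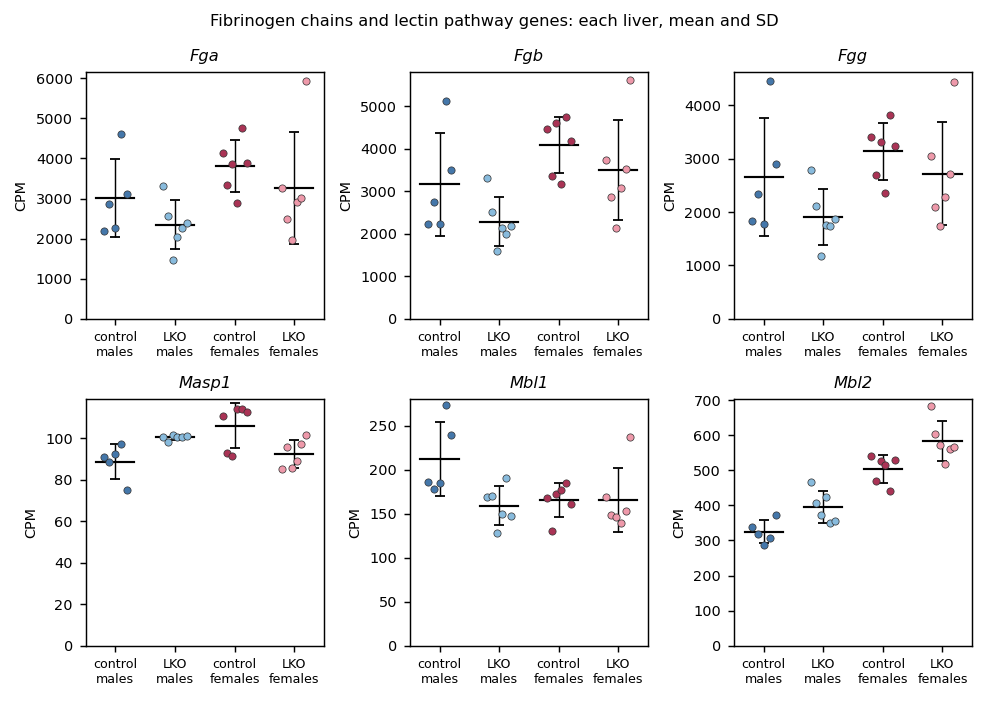
CPM of the fibrinogen chains Fga, Fgb and Fgg (top) and of Masp1, Mbl1 and Mbl2 (bottom) in each liver (points), with the group mean and SD (bars), on axes from 0. One control male and one LKO female lie above their groups for all fibrinogen chains, and the LKO male values of Masp1 lie within a range of 98.1 to 101 CPM.

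In the alternative pathway, Cfd (ENSMUSG00000061780, chr10:79726687-79728489, plus strand), which encodes factor D or adipsin, varied most between livers. It was 14.6, 31.7, 22, 1.205 and 45.4 CPM in the control males, where replicate 4 was the low value. In LKO males the lowest, median and highest were 3.95, 7.21 and 25.55 CPM, in control females 0, 0.524 and 1.34, with 0 counts in replicates 3 and 6, and in LKO females 0.478, 1.33 and 3.28. The fitted log2 fold change was -1.26 (SE 0.62) in males (adjusted p 0.436) and 1.53 (SE 0.72) in females (adjusted p 0.32), and the interaction, females minus males, was 2.79 (SE 1.05) (adjusted p 0.291). Counts in females ran from 0 to 67, so that fitted fold changes there depend on the prior count. Fat tissue is a main source of Cfd. The summed level of 5 adipocyte markers was 5.26 to 11 CPM in control males, 3.04 to 11.55 in LKO males, 4.52 to 11 in control females and 4.96 to 7.74 in LKO females. Most of that sum was Adrb3. Adipoq was at most 0.981 CPM in control males, 0.0585 in LKO males, 0.535 in control females and 1.27 in LKO females. Plin1, Retn and Lep were at most 1.52, 0.809 and 0.173 CPM in any liver, and 0 to 4 of the 5 markers were at 0 in a given liver. The part of fat tissue in the Cfd values was not tested.

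Cfb, which forms the alternative C3 convertase with C3b, lay between 1.145 and 5.82 CPM, both extremes in LKO females. Cfi, the protease that inactivates C3b and C4b, ran from 335 to 728 CPM over all livers and had log2 fold changes of -0.059 in males and 0.039 in females.

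Among the terminal components, C8g had the lowest p in both sexes. C8g encodes the gamma chain of C8, a lipocalin. It was 429, 486, 363, 710.0 and 547 CPM in the control males, and 378, 414 and 501 (lowest, median, highest) in LKO males, 416, 452 and 481 in control females and 334, 373 and 513 in LKO females. Its log2 fold change was -0.27 (SE 0.15) in males (adjusted p 0.477) and -0.21 (SE 0.11) in females (adjusted p 0.373), and the male value was -0.12 without control male replicate 4. C8b, the beta chain, had the largest spread among the better expressed members in control males: 287 CPM in replicate 4 against 45 to 77.7 in the other control males. Its male log2 fold change turned from -0.17 to 0.63 when that library was left out (adjusted p 0.931 and 0.496). C8a, the alpha chain, had a female estimate of 0.69 that became 0.11 without LKO female replicate 6, where C8a was 437 CPM against at most 168 in the other LKO females. The estimates of C6 and C9 lay between -0.13 and 0.14 in both sexes.

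The vitamin K dependent factors are F2, F7, F9, F10, Proc and Pros1, proteases and cofactors that need gamma-carboxylation to bind membranes. F2 (ENSMUSG00000027249, chr2:91455665-91466759, minus strand) encodes prothrombin. It was 1706.5, 1903, 1707, 2066 and 2103 CPM in the control males and 1473, 1777 and 1924 (lowest, median, highest) in LKO males, with overlap. In females it was 2382, 2501 and 2573 in controls and 1998, 2241 and 2358 in LKO livers, so the highest LKO female lay below the lowest control female. Non-overlap with lower LKO values took 0.548 percent of all genes tested in females. The log2 fold change of F2 was -0.12 (SE 0.095) in males (adjusted p 0.659) and -0.16 (SE 0.074) in females (adjusted p 0.302), and the male value was -0.064 without LKO male replicate 3. DESeq2 put the female value at an adjusted p of 0.0450, so the call depends on the tool.

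F7 and F10 lie next to each other on chromosome 8 (chr8:13076034-13085809 and chr8:13087308-13106676, plus strand, 1499 bases apart). F7, the protease that tissue factor engages to begin clotting, was 70.6, 82.4, 59.1, 124 and 82.4 CPM in control males, 61.4, 76.6 and 101 (lowest, median, highest) in LKO males, 144, 152 and 195 in control females and 117, 133 and 156 in LKO females. The LKO female range reached up to 4 of the 6 control females, and control replicates 5 and 6 lay above it. F7 had a log2 fold change of -0.27 (SE 0.10) in females (adjusted p 0.185) and -0.11 (SE 0.17) in males (adjusted p 0.862), and the male value was 0.076 without control male replicate 4. F10, which activates prothrombin, had log2 fold changes of -0.23 (SE 0.12) in males and -0.14 (SE 0.089) in females (adjusted p 0.456 and 0.47), and -0.13 in males without control male replicate 4. Pros1, the cofactor protein S, was steady in control males at 37.8 to 39.3 CPM, and its lowest, median and highest values were 35.6, 40.4 and 44.1 CPM in control females and 39.9, 45.05 and 56 in LKO females. Its female log2 fold change was 0.20 (SE 0.090) (adjusted p 0.295), and the male one 0.091 (SE 0.066) (adjusted p 0.607). The estimates of F9 were 0.063 in males and 0.026 in females, and those of Proc -0.13 and -0.071.

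The contact system and other clotting factors are F5, F11, F12, F13b, Kng1 and Klkb1. Klkb1 encodes plasma prekallikrein, which with factor XII starts contact activation, and lies 4658 bases from its relative F11. It was 122, 136, 104, 199 and 139 CPM in the control males, and 98.5, 119.7 and 159 (lowest, median, highest) in LKO males, 120.4, 162 and 183 in control females and 108, 128 and 164 in LKO females. Its log2 fold change was -0.29 (SE 0.12) in females (adjusted p 0.249) and -0.17 (SE 0.16) in males (adjusted p 0.7025). The genotypes overlapped in both sexes, and without control male replicate 4 the male value was -0.016. Kng1, the source of bradykinin, had -0.19 (SE 0.11) in males and 0.0011 (SE 0.091) in females (adjusted p 0.522 and 0.997). Its close paralog Kng2 can share reads with it. F12 was the steadiest of these, with group means of 729.7 to 819.9 CPM and SDs of 4.34 to 7.57 percent of the mean. The estimates of F5, F11 and F13b were positive in males (0.079 to 0.21) and negative in females (-0.24 to -0.052), and 0 of these 3 passed the interaction test.

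Fga, Fgb and Fgg encode the alpha, beta and gamma chains of fibrinogen, the clot protein, and sit in a cluster on chromosome 3 (Fgg, Fga and Fgb at chr3:82915031-82922356 and chr3:82933383-82940934, plus strand, and chr3:82947448-82957170, minus strand). The chains kept near-constant proportions through the 23 livers, and for that reason the 250 bases before their RefSeq start sites are shown, with matches to a STAT5-type motif, TTCNNNGAA, and a C/EBP-type motif, TTGCNNAA, in capitals, each searched on both strands. The sequences are RefSeq's, in GRCm38.p6 and not in the build of the tables, at chr3:83025903-83026152 on the plus strand (Fga), chr3:83049864-83050113 on the minus strand (Fgb) and chr3:83007474-83007723 on the plus strand (Fgg).
Fga: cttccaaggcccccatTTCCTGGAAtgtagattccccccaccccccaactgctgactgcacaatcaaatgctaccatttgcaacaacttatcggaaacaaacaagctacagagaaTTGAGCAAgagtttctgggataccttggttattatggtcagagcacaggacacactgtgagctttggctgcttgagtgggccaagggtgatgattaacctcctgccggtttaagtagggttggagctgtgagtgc
Fgb: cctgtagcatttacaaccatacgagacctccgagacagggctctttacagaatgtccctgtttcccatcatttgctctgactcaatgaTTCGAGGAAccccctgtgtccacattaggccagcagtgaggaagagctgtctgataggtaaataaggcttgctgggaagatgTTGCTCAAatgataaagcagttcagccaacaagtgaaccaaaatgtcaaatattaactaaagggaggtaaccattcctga
Fgg: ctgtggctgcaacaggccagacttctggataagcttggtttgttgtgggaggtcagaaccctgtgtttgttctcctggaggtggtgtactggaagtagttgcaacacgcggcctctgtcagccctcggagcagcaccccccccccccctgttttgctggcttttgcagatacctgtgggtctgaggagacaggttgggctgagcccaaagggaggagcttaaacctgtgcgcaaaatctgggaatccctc
The Fga and Fgb windows each hold both motifs, with the STAT5-type letters starting 234 and 162 bases before the start site, and the Fgg window holds neither. Over all 32851 promoters of this length in the table, 7.02 percent hold the STAT5-type motif and 9.56 percent the C/EBP-type. Of the 37 genes, 28 were matched, with 29 promoters, of which 6 hold the STAT5-type motif and 7 the C/EBP-type. A match describes letters in this window, not a bound site.

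Fgb was 2234, 2739, 2230.1, 5128 and 3498 CPM in the control males. Its lowest, median and highest values were 1584.5, 2164 and 3318 CPM in LKO males, 3165, 4329 and 4745 in control females and 2145.5, 3302 and 5611 in LKO females. The highest value of each sex was in control male replicate 4 and LKO female replicate 6, and the genotypes overlapped in both sexes. The log2 fold change of Fgb was -0.47 (SE 0.23) in males, with a 95 percent interval of -0.96 to 0.021 and an adjusted p of 0.42, and -0.23 (SE 0.19) in females, with an interval of -0.63 to 0.18 and an adjusted p of 0.62. Fga and Fgg gave -0.36 and -0.48 in males and -0.23 and -0.21 in females. Leaving out either library moved the estimates, towards 0 in males and away from 0 in females, with a negative sign for all 3 chains in every fit. Without control male replicate 4 the male values were -0.16 for Fga, -0.23 for Fgb and -0.22 for Fgg. Without LKO female replicate 6 the female values were -0.48, -0.41 and -0.40, with adjusted p of 0.117, 0.18 and 0.205. The chains kept their proportions throughout: the count of Fgg was 0.717 to 0.87 times that of Fgb, and the count of Fga 0.836 to 1.13 times, while Fgb itself spanned 3.54-fold. The chains of C8, by contrast, did not: the count of C8b was 0.15 to 0.927 times that of C8a, and that of C8g 0.764 to 11.6 times. These ranges pool both sexes, and C8a was lower in females other than LKO replicate 6 than in males. Both extremes of the C8g ratio were female livers. Control female replicate 2 had 416 CPM of C8g and 36 of C8a, and LKO female replicate 6 had 334 and 437.

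Plasminogen and the serpins had negative estimates in both sexes, 4 of 4 in each, with 0 called. In males 1 or 2 of the 4 turned positive when control replicate 2, control replicate 4 or LKO replicate 3 was left out. Serpinc1 (ENSMUSG00000026715, chr1:160806155-160833433, plus strand) encodes antithrombin, the main inhibitor of thrombin and factor Xa. It was 1907, 2081, 1751, 2539.6 and 2202 CPM in the control males, and 1678, 1882 and 2143 (lowest, median, highest) in LKO males, 2573, 2773 and 2966.5 in control females and 2201, 2283 and 2730.3 in LKO females. In females only LKO replicate 1 reached the control range. Serpinc1 had a log2 fold change of -0.24 (SE 0.084) in females, with an adjusted p of 0.176, the lowest among the 37 in that sex, and -0.15 (SE 0.10) in males (adjusted p 0.585), where it was -0.075 without control replicate 4. DESeq2 called it in females at an adjusted p of 0.0247 and in the average at 0.0468.

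Serpinf2 encodes alpha-2-antiplasmin, which blocks plasmin. It was 549.7, 604, 523, 988 and 759.7 CPM in the control males, and 386, 523 and 688 (lowest, median, highest) in LKO males, 643, 883 and 1110.0 in control females and 564, 676 and 876 in LKO females. Its log2 fold changes were -0.37 (SE 0.17) and -0.31 (SE 0.15) in males and females, with adjusted p of 0.406 and 0.3175, and the male value was -0.20 without control male replicate 4. Plg, plasminogen itself, was 1391, 1684 and 1815 CPM (lowest, median, highest) in control females and 1097, 1269.6 and 1777 in LKO females, and only LKO replicates 5 and 6 lay in the control range. Its female log2 fold change was -0.30 (SE 0.12) (adjusted p 0.231) and its male one -0.035 (SE 0.16) (adjusted p 0.954). Without LKO female replicate 6 the female value was -0.39, with an adjusted p of 0.0629. Serpind1, heparin cofactor II, had estimates of -0.12 and -0.13. The hepatocyte markers stood beside these values: 6 of 8 had a negative estimate in males and 8 of 8 in females, with medians of -0.21 and -0.24 and 0 called in either sex. Their sums were 60725 to 87701 CPM in control males, 56579 to 78693 in LKO males, 86365 to 105295 in control females and 61460.0 to 94017 in LKO females. The part of hepatocyte number or of general hepatocyte RNA in the members' values was not tested.

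Further genes of both pathways were compared between genotypes in the same way. Of 33 further complement components, regulators and receptors, 29 were tested in males and 30 in females, and 0 were called in either. Unadjusted p under 0.05 went to 2 positive and 3 negative in males, and to 7 positive and 1 negative in females, where 8.31 and 7.33 percent of all genes did so. Itgax and Cd59a came closest. Itgax, the CD11c chain of a C3 fragment receptor on leukocytes, had 1.17 in females (adjusted p 0.0546), and Cd59a, which blocks the membrane pore, 0.18 in the average of both sexes (adjusted p 0.0546). Of 31 further clotting, fibrinolysis and carboxylation genes, 26 were tested in each sex and 0 were called. The lowest adjusted p in the average was that of Vkorc1, which recycles vitamin K, at -0.28 (adjusted p 0.13). The 14 acute phase genes, a programme that fibrinogen and C3 also follow, had 4 positive estimates in males and 13 in females, with 0 called. Their medians were -0.17 and 0.42. The female estimates include LKO female replicate 6, whose sum of these genes was 39436 CPM. The sum was 11790 to 17023 CPM (median 15272) in control females. In LKO females its lowest value was 15660 CPM and its median 17400. Estimates without that liver are not given here.

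Whether the LKO effect differed between the sexes was tested as an interaction over all 23 livers. It called 0 of 37 members, against 0.0 percent of all genes, by edgeR and also 0 members by DESeq2. At an unadjusted p under 0.05 were 3 members, Masp1, Cfd and Mbl1, where 12.9 percent of all genes were. The Mbl1 interaction, females minus males, was 0.42 (SE 0.19) with an adjusted p of 0.365.

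Sex, in contrast, separated many of these genes. In control livers 14 of 37 members differed between females and males, 11 higher and 3 lower in females, against 18 percent of all genes tested (8.8 percent higher and 9.2 percent lower). Higher in females were C3, C4b, Mbl2, Cfi, F2, F7, F10, F5, F13b, Plg and Serpinc1, and lower were C6, C8a and Cfd. The same contrast in LKO livers, added after the data had been seen, called 14 of 37, 11 higher and 3 lower in females, against 12.4 percent of all genes (5.89 percent higher and 6.51 percent lower). Of each set of 14, 9 genes (64.3 percent) were called in the other genotype too, in the same direction: C3, C6, Cfd, Cfi, F2, F7, F10, Mbl2 and Serpinc1. In all, 34 of 37 estimates had the same sign in control and LKO livers, and the interaction above is the test of their difference. The median log2 fold change, females against males, was 0.25 over the 37 in control livers and 0.31 in LKO livers, where it was 0.0044 and 0.0055 over all genes. Each sex was deposited as its own table, so a difference between the tables cannot be told apart from sex. Without control male replicate 4, 21 members were called in control livers in place of 14. The calls over all genes rose as well, to 2947 of 13907 tested in place of 2466 of 13699. Males and females did not overlap for 12 of 37 members in control livers and 8 of 37 in LKO livers, against 10.3 and 6.18 percent of all genes.

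**Figure D3:**
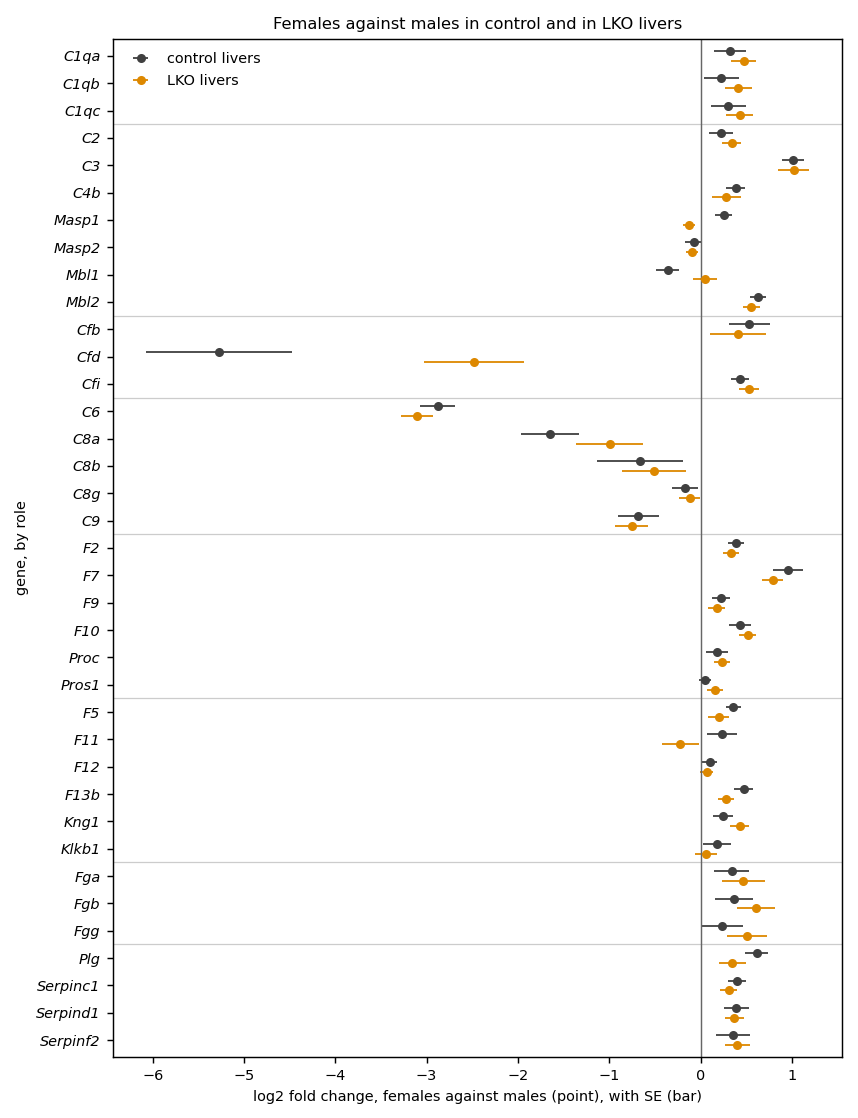
Log2 fold change of each of the 37 genes, females against males, in control livers (dark grey) and LKO livers (orange), with bars of 1 SE; grey lines separate role groups. All terminal complement genes lie left of 0 (C8b in control livers only with male replicate 4 included), down to -3.105 for C6, and the vitamin K dependent factors, fibrinogen chains, plasminogen and serpins lie right of 0.

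Of the 5 terminal components, C6 and C8a were lower in females in control livers and C6 and C9 in LKO livers. All 5 had a negative estimate in both, except that C8b was positive in control livers without male replicate 4. C8g was called in neither, at -0.17 and -0.12 (adjusted p 0.415 and 0.5525), and its control value was -0.024 without control male replicate 4. C6 (ENSMUSG00000022181, chr15:4756657-4844449, plus strand) and C8a (ENSMUSG00000035031, chr4:104672876-104733595, minus strand) showed the clearest gaps, and the 250 bases before their RefSeq start sites are shown for that reason (GRCm38.p6, chr15:4726960-4727209 on the plus strand for C6 and chr4:104876399-104876648 on the minus strand for C8a), with the same motifs in capitals.
C6: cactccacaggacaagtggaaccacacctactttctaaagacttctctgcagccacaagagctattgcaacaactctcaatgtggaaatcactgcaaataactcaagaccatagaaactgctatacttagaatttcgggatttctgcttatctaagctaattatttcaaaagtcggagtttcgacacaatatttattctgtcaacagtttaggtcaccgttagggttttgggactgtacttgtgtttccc
C8a: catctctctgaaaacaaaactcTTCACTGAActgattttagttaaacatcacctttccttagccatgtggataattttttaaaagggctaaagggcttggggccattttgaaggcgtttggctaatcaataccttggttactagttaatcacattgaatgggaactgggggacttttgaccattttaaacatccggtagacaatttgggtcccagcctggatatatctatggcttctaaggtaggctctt
The C8a window holds a STAT5-type motif 228 bases before the start, and the C6 window holds neither motif.

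C6, which binds C5b to begin the pore, was 169, 136, 178, 295 and 151 CPM in the control males and 149, 199 and 245 (lowest, median, highest) in LKO males. In control females it was 18.3, 26.7 and 29.4 and in LKO females 18, 21.8 and 34.5. The lowest male lay far above the highest female in both genotypes. The log2 fold change, females against males, was -2.88 (SE 0.19) in control livers and -3.105 (SE 0.18) in LKO livers, with adjusted p of 9.44e-07 and 2.47e-08, a level 7.355-fold and 8.6-fold lower in females.

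C8a was 281, 287, 279.9, 452 and 287 CPM in the control males, 244, 336 and 411 (lowest, median, highest) in LKO males, 36, 97.6 and 179 in control females and 75.7, 112 and 437 in LKO females. Control males and females did not overlap, and in LKO livers the overlap came from female replicate 6. C8a gave a log2 fold change of -1.65 (SE 0.32) in control livers (adjusted p 0.00389) and -0.996 (SE 0.37) in LKO livers (adjusted p 0.0918). Without LKO female replicate 6 the LKO value was -1.58 (adjusted p 0.000193). C9, which polymerises to the ring of the pore, was 224, 269.9, 207, 417 and 265 CPM in control males, 239.9, 289 and 402 (lowest, median, highest) in LKO males, 109, 171 and 249 in control females and 137, 162 and 288 in LKO females. It passed the test in LKO livers at -0.76 (SE 0.18) (adjusted p 0.0117) and not in control livers at -0.68 (SE 0.23) (adjusted p 0.0545), where DESeq2 gave 0.023. The estimate of C8b in control livers was -0.66, and 0.14 without control male replicate 4, so its direction rests on that library.

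**Figure D4:**
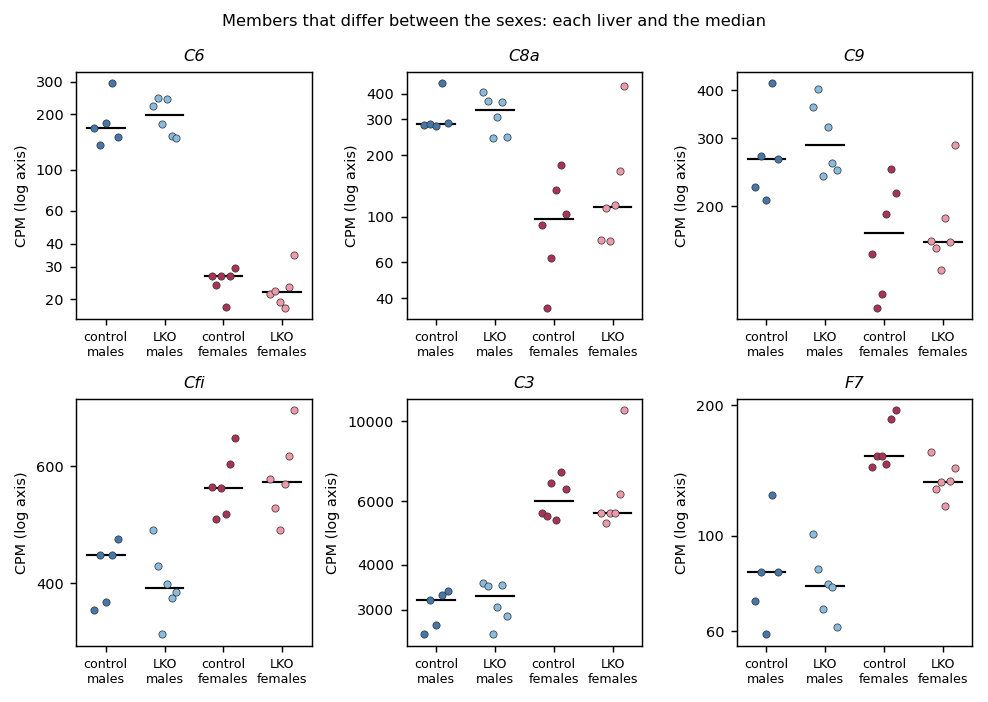
CPM of C6, C8a, C9, Cfi, C3 and F7 in each liver (points) on log axes, with the group median (bar). C6 lies at 136 CPM or more in males and at 34.5 or less in females. C3 lies higher in every female than in any male, and F7 in every female than in any male of the same genotype.

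C3 and F7 were the members with the largest female excess, and their promoter windows are shown for comparison with those of C6 and C8a (GRCm38.p6, chr17:57228137-57228386 on the minus strand for C3 and chr8:13025784-13026033 on the plus strand for F7).
C3: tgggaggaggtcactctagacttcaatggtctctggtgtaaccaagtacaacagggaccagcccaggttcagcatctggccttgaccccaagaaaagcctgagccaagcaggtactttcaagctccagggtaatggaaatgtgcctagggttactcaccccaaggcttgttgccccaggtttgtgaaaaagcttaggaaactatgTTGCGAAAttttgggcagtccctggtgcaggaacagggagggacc
F7: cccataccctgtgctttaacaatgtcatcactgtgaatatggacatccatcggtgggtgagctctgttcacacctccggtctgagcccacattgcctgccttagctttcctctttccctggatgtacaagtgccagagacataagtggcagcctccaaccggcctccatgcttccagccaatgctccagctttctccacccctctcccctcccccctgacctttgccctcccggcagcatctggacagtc
The C3 window holds a C/EBP-type motif 45 bases before the start, and the F7 window holds neither motif.

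C3 (ENSMUSG00000024164, chr17:57510970-57535136, minus strand) was 2566, 3182, 2721, 3284 and 3383.5 CPM in the control males, 2560.1, 3267 and 3565 (lowest, median, highest) in LKO males, 5305, 6013 and 7207 in control females and 5229, 5565 and 10721 in LKO females. No male reached any female. C3 gave a log2 fold change of 1.01 (SE 0.12) in control livers and 1.02 (SE 0.17) in LKO livers (adjusted p 0.000154 and 0.00108), and the LKO value was 0.82 without female replicate 6. F7 was higher in every female than in any male of the same genotype, with log2 fold changes of 0.96 (SE 0.16) and 0.79 (SE 0.11) (adjusted p 0.00202 and 0.000304); its values in each group are given above. Mbl2 was higher in females by 0.63 (SE 0.091) in control and 0.555 (SE 0.095) in LKO livers (adjusted p 0.000673 and 0.00131), without overlap in either, while its relative Mbl1 was -0.36 (SE 0.13) and 0.048 (SE 0.13) (adjusted p 0.0632 and 0.8565). Cfi was 365, 441, 375, 442 and 466 CPM in the control males and 499, 557 and 661 (lowest, median, highest) in control females, a log2 fold change of 0.43 (SE 0.10) (adjusted p 0.0105), and in LKO livers it was 0.53 (SE 0.11) (adjusted p 0.00565). C4b passed in control livers only, at 0.39 (SE 0.10) (adjusted p 0.0227) against 0.28 (SE 0.16) in LKO livers (adjusted p 0.276), where it was 0.10 without female replicate 6. The control value fell short of the threshold when control male replicate 1 or control female replicate 5 or 6 was left out, with adjusted p of up to 0.0659.

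Cfd ran the other way and with the widest gap. Its values, listed above, lay between 1.205 and 45.4 CPM in control males and between 0 and 1.34 in control females, and only control male replicate 4 lay in the female range. The fitted log2 fold change was -5.27 (SE 0.80) in control livers (adjusted p 0.000949) and -2.48 (SE 0.54) in LKO livers (adjusted p 0.00752), where every male was above every female.

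Among the clotting genes all 6 vitamin K dependent factors, the 3 fibrinogen chains and the 4 genes of plasminogen and the serpins had positive estimates in both genotypes. F2 was 0.39 (SE 0.088) higher in control females and 0.33 (SE 0.086) in LKO females on the log2 scale (adjusted p 0.01 and 0.0188), without overlap. F10 was 0.43 (SE 0.12) and 0.51 (SE 0.10) (adjusted p 0.0224 and 0.00263), and its control value missed the threshold when control male replicate 1, 2 or 3 was left out, with adjusted p of up to 0.0622. Serpinc1 was 0.40 (SE 0.10) and 0.31 (SE 0.088) (adjusted p 0.01795 and 0.0341). Its control call was lost without control male replicate 1 (adjusted p 0.0534), and its LKO call in 8 of the 12 fits that each left out 1 liver, where adjusted p reached 0.0669. Plg, F5 and F13b passed in control livers, at 0.62 (SE 0.13), 0.35 (SE 0.082) and 0.47 (SE 0.10) (adjusted p 0.00565, 0.0107 and 0.0074). Kng1 and Serpind1 passed in LKO livers, at 0.43 (SE 0.10) and 0.37 (SE 0.10) (adjusted p 0.0112 and 0.0259), and the call of Serpind1 was lost in 3 of 12 such fits (adjusted p up to 0.0589). The fibrinogen chains did not pass in either genotype, with estimates of 0.24 to 0.37 in control livers and 0.47 to 0.60 in LKO livers. Without control male replicate 4 the control values were 0.54 for Fga, 0.61 for Fgb and 0.50 for Fgg, and all 3 were called (adjusted p 0.0232, 0.018 and 0.047). Without LKO female replicate 6 the LKO values were 0.21, 0.42 and 0.32, with adjusted p of 0.493, 0.14 and 0.313.

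C1qa and C2 passed in LKO livers, at 0.47 (SE 0.14) and 0.34 (SE 0.10) (adjusted p 0.0341 and 0.0433), and not in control livers, at 0.32 (SE 0.18) and 0.22 (SE 0.13) (adjusted p 0.225 and 0.2465). The C1qa call was lost in 7 of the 12 fits that each left out 1 LKO liver and that of C2 in 8 of 12, with adjusted p of up to 0.0786 and 0.0827. The macrophage markers stood beside C1q: 10 of 10 had positive estimates in females against males in both genotypes. Of them, 4 were called in control livers (Clec4f, Timd4, Cd163 and Csf1r, 0.60 to 1.45) and 3 in LKO livers. Of all genes tested, 18 and 12.4 percent were called. Clec4f, which defines Kupffer cells, was 83.9 to 200.4 CPM in control males and 184 to 311 in control females. The part of macrophage number in the sex difference of C1qa was not tested. Of the 8 hepatocyte markers, 6 had positive estimates in each genotype, with medians of 0.17 and 0.20. Alb and Cps1 were called in control livers, where 18 percent of all genes were.

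Other genes of the pathways were compared by sex as well. Of all genes tested, 8.8 percent were called higher and 9.2 percent lower in control females. In LKO females these shares were 5.89 and 6.51 percent. Of 29 further complement genes tested in control livers, 4 were higher in females (Cfp, Vsig4, Fcna and Colec10, 0.65 to 1.09) and 1 lower (Clu, -0.35). Cfp encodes properdin, which stabilises the alternative convertase, and Vsig4 is the complement receptor of Kupffer cells. In LKO livers 7 of 30 were higher and 0 lower. Among them were Cfp, Vsig4, Fcna, Cd46, Vtn and Cpn2. Of 26 further clotting genes, 3 were higher in control females (Fgl1, Proz and Ggcx) and 2 lower (F2r and Vwf). F2r, the thrombin receptor PAR-1, was 21.2 to 34.8 CPM in control males and 7.87 to 10.5 in control females, log2 fold changes of -1.53 in control and -1.66 in LKO livers (adjusted p 7.22e-06 and 4.82e-07). Fgl1, a fibrinogen-like protein of hepatocytes, was 139.6 to 290.0 CPM in control males and 374 to 493 in control females (1.26 in control and 2.515 in LKO livers). In LKO livers Fgl1, Gas6, Hrg, Kng2 and Proz were higher and F2r, F8 and Vkorc1l1 lower. Of 12 transcription factors with targets among these genes, Cux2, a factor of female liver, was 0.0588 to 0.4905 CPM in control males and 23.9 to 109 in control females, and Hnf4a was 0.43 in control livers (adjusted p 0.0418). Stat5b and Cebpa, whose binding motifs were searched above, were not called in either genotype.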

How the data were processed

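RNA was sequenced from 23 mouse livers after poly-T bead selection of mRNA, with dUTP in second-strand synthesis, per the labels' protocols. Reads were aligned with HISAT2 2.0.5 to mm39, per the submitters' processing notes. The counting tool and its use of strand are not given in the sources used here. The authors deposited 1 table per sex with raw counts per gene, FPKM values, normalized counts (a scaled signal, not used for tests) and their own comparison of LKO with control as log2 values of fold change with p-values. Tests here used the deposited counts and FPKM served only for levels between genes.

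Genes with low counts were removed with filterByExpr, libraries were scaled by TMM, and differences were tested with edgeR 4.0.16 (glmQLFit, glmQLFTest) in R 4.3.3, with Benjamini-Hochberg adjustment over all genes and a threshold of 0.05. Males and females were fitted within their own table. The average of both sexes and the interaction used the genes shared by both tables, as did females against males in control livers. That contrast in LKO livers was added after the data had been seen. Sex coincides with the table. Alternatives were DESeq2 1.42.0, its size factors in edgeR (RLE), no filter, a block for replicate number and leaving out each liver. Procedures were tested on simulated data. All columns of per-sample values were matched to a sample.

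Members and gene lists were chosen with earlier results of these data known. Statistics are given for members called in any comparison, members whose genotypes do not overlap within a sex, members with an unadjusted p under 0.05 in males, females or the average, and the member with the lowest p of each role group. Values of other members beside left-out libraries, and the genes of the pathway and marker lists named with values, were chosen after their values were seen. Motifs were searched in RefSeq promoters of GRCm38.p6. Some items of the lists are not reported here.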

Additional observations from a re-analysis of the deposited data

Results flagged for a closer look

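Each of the values here lay apart from its group by Dixon's test, in which the gap to the nearest liver is set against the range of the group. Over 148 groups (37 genes in 4 groups) 16 were marked, 10.8 percent, and chance marks about 1 in 20. That rate holds for independent groups of normal values. Here the 37 genes share the same livers and the CPM were not logged, so no conclusion is drawn from the excess.

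LKO female replicate 6 accounted for 7 of the 16, all as the highest of its group. They were C3 at 10721 CPM against 5229 to 6264 in the other 5 LKO females, C4b at 2383.5 CPM against 1149 to 1358, Mbl1 at 237 CPM against 139.7 to 169, C9 at 288 CPM against 137 to 186 and Fga at 5934 CPM against 1953.5 to 3263. The pore components C6 and C8a were the other two, with C6 at 34.5 CPM against 18 to 23.35 and C8a at 437 CPM against 75.7 to 168. The summed acute phase genes of this liver, 39436 CPM, moved with these values, and their part was not tested.

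Control male replicate 4 accounted for 4, also as the highest. They were C6 at 295 CPM against 136 to 178 in the other control males, C8a at 452 CPM against 279.9 to 287, C8b at 287 CPM against 45 to 77.7 and Serpind1 at 432 CPM against 239.5 to 286. This library had the lowest total count and the fewest genes with counts, 18232, of the 23, and the part of that was not tested.

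The other 5 were spread over 5 livers. Cfb in control male replicate 3 was 3.01 CPM, where the others were at 1.53 to 1.59. Kng1 in LKO male replicate 1 was 2010.5 CPM, where the others were at 1490.4 to 1670.3. Cfd in LKO male replicate 5 was 25.55 CPM, where the others were at 3.95 to 10. Serpinc1 in LKO female replicate 1 was 2730.3 CPM, where the others were at 2201 to 2399. Masp1 in LKO male replicate 2 was the low value of a narrow group, at 98.1 CPM, where the others were at 100.8 to 101.4.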

How the results depend on the processing

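Of 97 gene results, 89 kept their direction under every alternative run and 95 under the other scaling (RLE), no filter, DESeq2 and the replicate block. The 97 cover Cpt1a and members chosen by their tests in these data, by the rule given above. That choice in part favours a steady direction, so the share does not describe all 37 members. In males 1 gene was called, against 107 with DESeq2, 2 with no filter and 2 with the replicate block. In females 194 were called, against 554 with DESeq2 and 334 with the replicate block. In the average 79 were called, against 303 and 46, and in the interaction 0, against 72 with DESeq2. DESeq2 called 2 members in females and 2 in the average, where edgeR called 0. Kng1 in females turned from 0.0011 to -0.000459 with RLE factors, -0.0027 with DESeq2 and -0.0026 with the replicate block, and Cfd in the average from 0.14 to -0.014 with the replicate block. The cause was not tested.

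Same-numbered control and LKO livers had correlations of their deviations from -0.371 to 0.375 in males, where 1 of 5 correlated best with its own number, and from -0.016 to 0.195 in females, where 4 of 6 did. Not every pair was above 0.1, so the numbers were not used as pairs, and the higher share in females is a hint from the data and not from the design. With the replicate block control females against control males gave 991 genes and 8 members in place of 2466 and 14. The calls of C4b, Cfi, F10, F2, F5, Plg and Serpinc1 were lost and that of C9 gained.

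Leaving out each liver in turn, the genes called ran from 1 to 2 in males, 87 to 233 in females, 30 to 206 in the average, 0 to 17 in the interaction, 1766 to 2947 between control females and males, and 1267 to 1893 between LKO females and males. The members called stayed at 0 in the genotype and interaction comparisons and ran from 11 to 21 between control females and males (21 without control male replicate 4) and from 10 to 16 between LKO females and males. Directions turned within these ranges for C1qa (-0.027 to 0.21), C1qb (-0.044 to 0.25), F7 (-0.20 to 0.076) and Plg (-0.12 to 0.067) in males, for Kng1 (-0.044 to 0.036) and Mbl1 (-0.13 to 0.043) in females, and for Cfd (-0.14 to 0.34) and Masp1 (-0.038 to 0.0052) in the average. Cfb and Cfd have few counts, which limits their precision.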
